A study of Mus musculus with 6 samples.

Results

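The 10 genes Grhl2, Grhl3, Shroom3, Enah, Vcl, Marcks, Marcksl1, Abl1, Abl2 and Cfl1 encode grainyhead transcription factors and regulators of actin, and in mice their loss, alone or together with a related gene, leaves the neural tube open. They were taken by symbol, from a list drawn up with earlier results of these data known: every transcript probe whose platform annotation names 1 of them was used, which gave 15 of the 34967 transcript probes on the array, for 10 of 18507 named genes. The tissue came from mouse embryos at embryonic day 9.5 that were cut across below the forelimb, and RNA of the posterior piece was read on CodeLink whole-genome arrays, with 1 colour and 1 array per sample. The tested embryos were null for Fkbp8 (samples 6, 9 and 11) and the comparison embryos were wild type (samples 7, 10 and 12), all from a stock mixing C57BL/6 and 129S5/SvEvBrd. Fkbp8 encodes a membrane-anchored immunophilin, and the labels do not describe the null allele. A single average of 21.6 somite pairs is given for all 6 samples, and whether a sample was 1 embryo is not stated, so a p-value here covers the variation among these 6 samples, which may be partly technical.

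Neural folds rise and meet through changes of cell shape in the neural plate and through movement and adhesion of the neighbouring surface ectoderm. Grainyhead-like factors are transcription factors of that ectoderm and of gut epithelium, where they maintain junction genes such as E-cadherin and claudins. In the neural plate, Shroom3 brings Rock kinases to the apical actin belt, which then contracts, while Ena/VASP proteins, cofilin, vinculin, MARCKS proteins and Abl kinases govern how filaments grow, turn over and attach to the membrane. The series compared null with wild-type tissue for differences due to the mutation, and the question here is whether transcripts of these genes differed.

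The targeted gene was read first. Fkbp8 did not rise above background in any null sample and did so in every wild-type sample, and was at least 3.33-fold lower in the null tissue (limma adjusted p = 0.409); with every null value near background, only this bound can be read. Per array, 63.3% to 69.2% of probes lay above background. Wild-type sample 10 stood apart: it alone had a high signal on the brighter Xist probe (log2 10.3, against 5.99 to 6.53 on the other arrays) and a near-background Eif2s3y, the pattern of a female embryo. Its tail bud and presomitic markers averaged -0.96 relative to their mean over the arrays, where the other arrays had -0.27 to 0.66. Values without that array are given beside several of the results that it moved. All 8 neural progenitor markers and all 8 tail bud and presomitic markers of the lists used were measurable, as a posterior piece with neural tube should hold. One of the labels, the source name, gives an anterior origin, while the tissue label and the dissection protocol give a posterior one.

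None of the closure genes passed the test between null and wild-type tissue. Of the 15 probes, 11 were tested, covering 8 of the 10 genes, and 0 of them had a limma adjusted p below 0.05 (adjusted p = 0.9999 for each), where 0.00471% of all 21243 tested probes did. At an unadjusted p below 0.05 the count was also 0 of 11, against 3.09% of all tested probes. Log2 differences, null minus wild type, ran from -0.33 for Cfl1 to 0.20 for Marcks, with a median of -0.04 (-0.09 with wild-type sample 10 left out, -0.002 with null sample 11 or wild-type sample 12 left out), and 9 of the 11 were negative, against 49.2% of all tested probes. Their median size was 0.084, beside 0.085 for all tested probes. The 3 null values lay wholly on one side of the 3 wild-type values for 1 probe of Abl1, against 9.25% of all tested probes (4.33% with null lower and 4.92% with null higher). A permutation test of 3 arrays against 3 cannot go below p = 0.1, so the limma fit across all probes was used throughout.

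**Figure D1:**
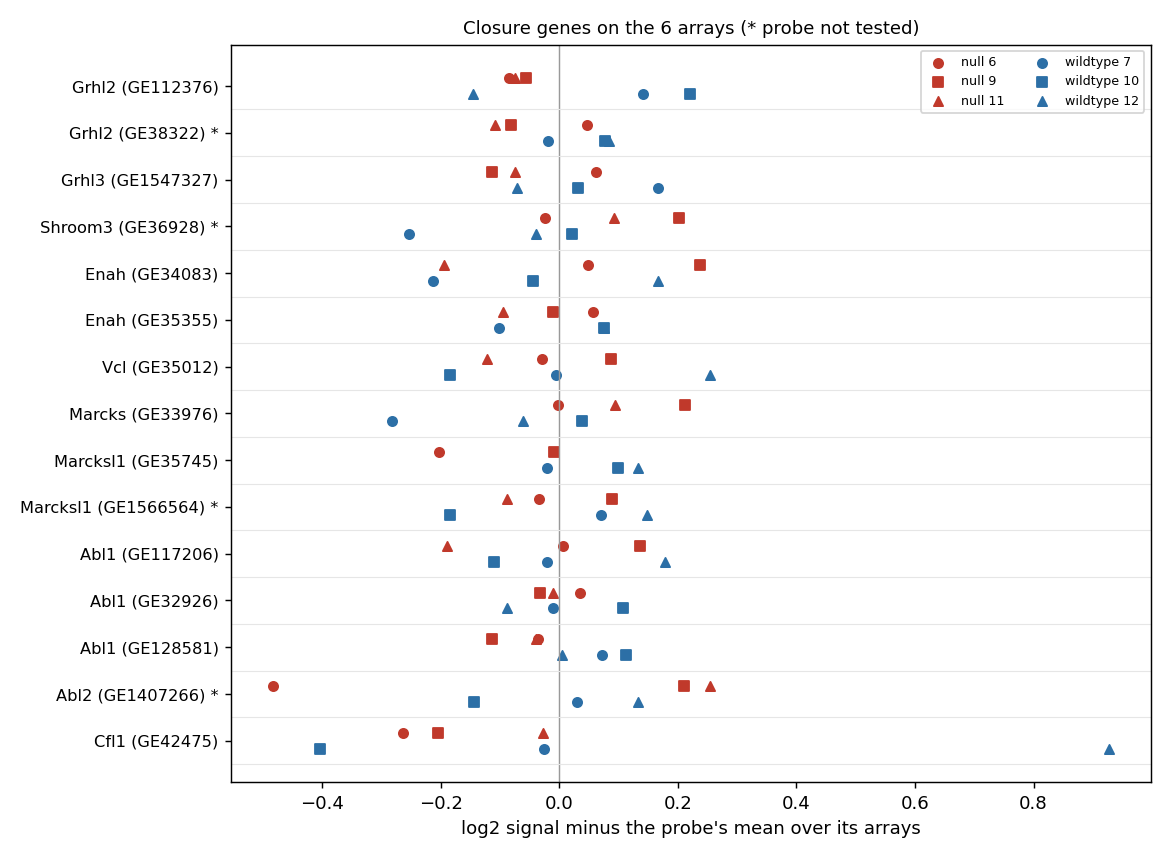
Log2 signal of each of the 15 probes on each array, as the deviation from the probe's own mean (x axis, log2 units), with null arrays in red above and wild-type arrays in blue below in each row. Asterisks mark probes that were not tested, and the Marcksl1 (GE35745) spot of null sample 11 is left out. The colours intermingle in nearly every row, and the largest single deviation is Cfl1 in wild-type sample 12.

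The size of change that these arrays leave possible follows from the 95% intervals of the limma fit. All 11 intervals included 0, and the SE of the differences was 0.09 to 0.29. For Grhl2 the interval of the fold was 0.753 to 1.09, for Grhl3 0.798 to 1.11 and for Marcks 0.956 to 1.38, null over wild type. For Cfl1 it was the widest, 0.499 to 1.27. An offset of 50 was added to every intensity before the log, so these values understate changes of dim probes such as Grhl3, Vcl, the second Enah probe and the dimmer Abl1 probes. A missed threshold does not show that levels were equal.

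**Figure D2:**
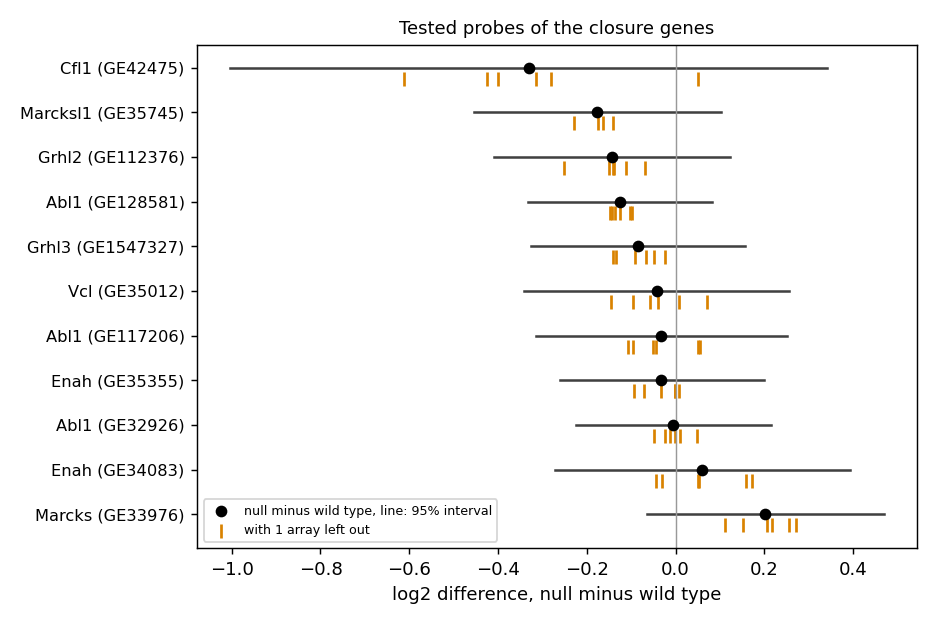
Log2 difference, null minus wild type, for the 11 tested probes (dots) with the 95% interval of the limma fit (lines) and the differences with 1 array left out (orange ticks). Every interval spans 0, and the Cfl1 ticks run from -0.61 to 0.05.

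Grhl2 encodes the grainyhead factor needed for closure of the cranial folds and, in the trunk, for surface ectoderm and hindgut integrity. On its brighter probe (GE112376) the log2 signal was 7.99, 8.02 and 8.00 in null samples 6, 9 and 11, against 8.22, 8.29 and 7.93 in wild-type samples 7, 10 and 12. The null arrays lay close together, below wild-type samples 7 and 10 and above wild-type sample 12, so the groups overlapped. The mean was 8.00 ± 0.02 in null and 8.15 ± 0.19 in wild-type tissue (SD, n = 3 each). Their difference was -0.14 ± 0.12 (SE; 95% interval -0.41 to 0.12; limma unadjusted p = 0.248). Without wild-type sample 12 the difference was -0.25 (unadjusted p = 0.0377, limma adjusted p = 0.994), and leaving out sample 10 instead gave -0.07. The other Grhl2 probe (GE38322) was near background on all 6 arrays and was not tested.

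Grhl3 encodes the paralogue whose reduced expression underlies the curly tail mouse, a classic model of spina bifida. Its single probe (GE1547327) gave 7.11, 6.93 and 6.97 in null samples 6, 9 and 11, against 7.21, 7.08 and 6.98 in wild-type samples 7, 10 and 12. Null sample 6 was above wild-type samples 10 and 12, and the lowest wild-type array matched null sample 11. The difference was -0.08 ± 0.11 (SE; 95% interval -0.33 to 0.16; limma unadjusted p = 0.445), and -0.13 with the intensity floored at 1 and no offset. It was dim, with background-subtracted intensities of 73.3 to 79.2 in null and 80.5 to 92.6 in wild-type arrays before normalization. Grhl1, the third family member, was above background on 1 array of each group at most on either of its probes and was not tested.

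Genes that act with the grainyhead factors or lie downstream of them in epithelia were lower in null tissue more often than not, without any passing the test. Of 25 such genes 20 were tested, 0 had an adjusted p below 0.05 (against 0.00778% of all 12850 named genes tested with 1 probe each), 17 were lower and 3 higher (46.5% of named genes were lower), and the median log2 difference was -0.18 (-0.23 to -0.13 with 1 array left out), beside 0.01 for all named genes. The list was chosen with earlier results known, so its direction is not independent evidence. Without wild-type sample 10, 16 were lower and 4 higher. At an unadjusted p below 0.05, 3 were lower, against 1.30% of named genes, and in 5 the null values lay wholly below the wild-type ones, against 3.92% of named genes, while in 0 they lay wholly above, against 5.28%. The E-cadherin gene Cdh1 had 7.56, 7.42 and 7.26 in null samples 6, 9 and 11, against 7.67, 7.71 and 7.81 in wild-type samples 7, 10 and 12. Its difference was -0.32 ± 0.11 (SE; limma adjusted p = 0.9999). The claudin genes Cldn7 and Cldn4 had differences of -0.33 ± 0.12 and -0.34 ± 0.13.

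The array averages of these genes, without Grhl2 and Grhl3, can be set beside the 2 factors. Relative to its mean over the arrays, the grainyhead list averaged -0.05, -0.12 and -0.07 in null samples 6, 9 and 11, against 0.05, 0.10 and 0.09 in wild-type samples 7, 10 and 12, so the groups did not overlap. Because the list was chosen with earlier results known, this separation is not independent evidence either. Wild-type sample 12, which had the lowest Grhl2 of all 6 arrays, was among the higher ones for the list. Its list average includes Krt8, which had 9.73 in sample 12 and at most 8.38 on any other array. The place of sample 12 in the list average therefore rests in part on Krt8, and the average without Krt8 was not computed. The list shares 9 of its 25 genes (36.0%) with the 12 surface ectoderm markers (75.0% of those), so the 2 are not independent. Of the 11 surface ectoderm markers tested, 10 were lower and 1 higher (median -0.25; 8 and 2 of 10 without wild-type sample 10), and the array means of the 10 measured on every array ran from -0.19 to -0.05 in null and from -0.01 to 0.18 in wild-type tissue. Of the 12 surface ectoderm markers 11 were named on the array, and all 11 were bright enough to be tested. In tissue of mixed cell types, fewer cells of a type and less RNA per cell cannot be told apart, and the part of surface ectoderm content in these values was not tested. Among 7 tested gut endoderm markers, which share Cldn7 with the grainyhead list, 5 were lower and 2 higher, with a median of -0.11 (-0.23 without wild-type sample 10). At an unadjusted p below 0.05 in limma there were 3 surface ectoderm (27.3%) and 3 gut endoderm markers (42.9%), against 3.21% of named genes. Groups did not overlap for 36.4% of surface ectoderm, 57.1% of gut endoderm and 37.5% of neural progenitor markers, against 9.20% of named genes. Of the gut endoderm markers, 1 was higher in each count.

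**Figure D3:**
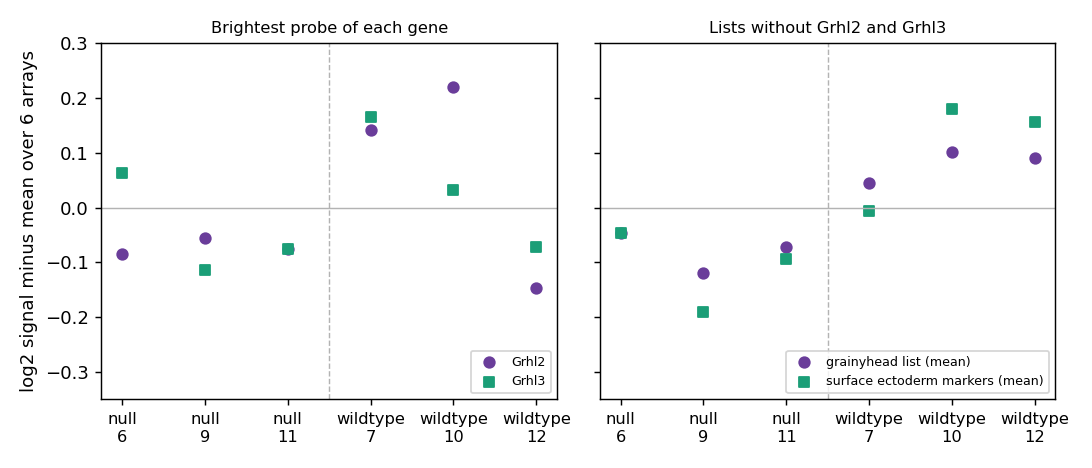
Log2 signal relative to the mean over the 6 arrays (y axis) by array (x axis, null left of wild type) for the brightest probes of Grhl2 and Grhl3 (left) and for the averages of the grainyhead list and the surface ectoderm markers (right). Both averages are lower on every null array than on any wild-type array, while Grhl2 and Grhl3 in wild-type sample 12 sit among or below the null values. Both averages include Krt8, which was high in wild-type sample 12, so their height on that array rests in part on that gene.

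Over the 6 arrays the genes with the pattern most like that of Grhl3, among 11122 other named genes above background on all arrays, were Sfn, Spaar and Trim29 (Pearson r = 0.991, 0.988 and 0.987). Sfn, which encodes the stratifin (14-3-3 sigma) protein, had log2 signals of 8.64, 8.14 and 8.30 in null samples 6, 9 and 11, against 9.13, 8.61 and 8.30 in wild-type samples 7, 10 and 12. For Grhl2 they were Vps18, Gabra4 and Mto1 (r = 0.976, 0.972 and 0.971). With 6 arrays, each value describes these arrays only. Grhl2 and Grhl3 correlated with each other at r = 0.615.

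The promoter table of RefSeq (GRCm38.p6) held 8 of the 10 genes. A script searched the 250 bases before the start site of each on both strands for the grainyhead motif AACCGGTT, which 0.116% of all 32851 promoters hold, for its looser form AACCNGTT (1.79%), which includes the first, and for the CArG box bound by serum response factor (1.47%), a regulator of many actin genes. No closure gene's window held either grainyhead form, and Vcl alone held a CArG box. A match or its absence describes the letters of this window only. The windows of Grhl3, the grainyhead gene in the table, and of Vcl, the member with a match, are shown 5′ to 3′ on the gene's strand, with the CArG box in capitals, at chr4:135573633-135573882 (minus strand) and chr14:20929148-20929397 (plus strand).
Grhl3: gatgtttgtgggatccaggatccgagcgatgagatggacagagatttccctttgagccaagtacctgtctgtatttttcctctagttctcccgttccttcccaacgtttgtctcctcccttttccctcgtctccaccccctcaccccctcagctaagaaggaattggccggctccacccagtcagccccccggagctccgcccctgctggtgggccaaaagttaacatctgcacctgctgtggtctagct
Vcl: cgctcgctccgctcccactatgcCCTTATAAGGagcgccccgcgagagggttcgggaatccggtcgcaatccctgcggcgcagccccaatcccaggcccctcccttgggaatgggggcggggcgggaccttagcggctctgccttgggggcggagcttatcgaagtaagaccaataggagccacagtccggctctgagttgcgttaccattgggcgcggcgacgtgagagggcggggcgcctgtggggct

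Shroom3, the apical constriction protein of the neural plate, was too dim to be tested. Its probe (GE36928) had 6.35, 6.58 and 6.47 in null samples 6, 9 and 11, against 6.12, 6.40 and 6.34 in wild-type samples 7, 10 and 12. It was above background in null samples 9 and 11 and on 0 wild-type arrays. Null sample 6 lay below wild-type sample 10, so the groups overlapped, and no fold is given for values this close to background.

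Other genes of apical constriction and actomyosin contraction were divided between higher and lower. Of 26 genes 24 were tested, 13 were higher and 11 lower in null tissue, the median log2 difference was 0.02 (0.001 with sample 10 left out, 0.05 with sample 12 left out), and 0 had groups that did not overlap, against 9.20% of named genes. None passed at an adjusted or an unadjusted p below 0.05 in limma (3.21% of named genes at the unadjusted threshold). The smallest unadjusted p belonged to Rock1, a kinase that activates myosin, at -0.28 ± 0.15 (SE; limma unadjusted p = 0.0937, adjusted p = 0.9999), followed by the guanine nucleotide exchange factor gene Arhgef12 at -0.17 ± 0.10 and the small GTPase gene Rac1 at 0.15 ± 0.12. Leaving out wild-type sample 10 gave -0.14 for Rock1 and 0.03 for Rac1.

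Enah encodes Mena, an Ena/VASP protein that lengthens actin filaments and is needed for closure when profilin is reduced. The brighter probe (GE34083) gave 8.75, 8.94 and 8.50 in null samples 6, 9 and 11, against 8.49, 8.65 and 8.87 in wild-type samples 7, 10 and 12. Both groups covered about the same range. The difference was 0.06 ± 0.14 (SE; 95% interval -0.27 to 0.39) on this probe and -0.03 ± 0.10 on the dimmer one (GE35355), whose intervals overlap. Leaving out 1 array moved the brighter probe to between -0.04 and 0.17.

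Other genes of actin assembly, from Ena/VASP relatives to the Arp2/3 and WAVE complexes, were also without a call. Of 39 genes 33 were tested, 23 were higher and 10 lower, and the median was 0.06, where 53.5% of all named genes were higher. At an unadjusted p below 0.05 there was 1, Arpc4, a subunit of the filament-branching Arp2/3 complex, at -0.46 ± 0.20 (SE; limma unadjusted p = 0.0495, adjusted p = 0.9999). That is 3.03% of the list, beside 3.21% of all named genes. Arpc4 had 7.47, 7.52 and 7.56 in null samples 6, 9 and 11, against 7.83, 7.63 and 8.48 in wild-type samples 7, 10 and 12, with sample 12 far above the others. Its difference was -0.20 with sample 12 left out and -0.63 with sample 10 left out. Arpc2, another subunit of that complex, had 0.27 ± 0.13, and Abi1, of the WAVE complex, 0.18 ± 0.12. Leaving out wild-type sample 12 gave 0.16 for Arpc2, and leaving out null sample 9 gave 0.09 for Abi1. The list's median was 0.02 without null sample 9 and 0.03 without null sample 6, where 16 of 32 genes were higher.

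**Figure D4:**
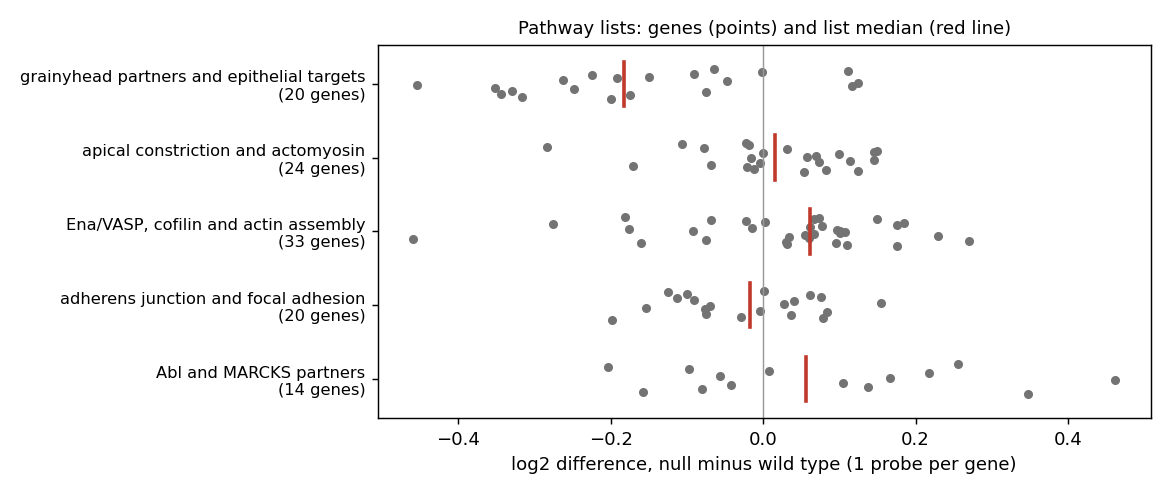
Log2 differences, null minus wild type (x axis), of the tested genes in the 5 pathway lists, 1 probe per gene (grey points; the height within a row has no meaning), with the list's median in red. The grainyhead list has a median of -0.18, while the medians of the 4 cytoskeletal lists lie between -0.02 and 0.06.

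Vcl encodes vinculin, which ties actin filaments to adherens junctions and focal adhesions. Its probe (GE35012) gave 6.95, 7.06 and 6.85 in null samples 6, 9 and 11, against 6.97, 6.79 and 7.23 in wild-type samples 7, 10 and 12. The null values fell inside the wild-type range. The difference was -0.04 ± 0.13 (SE; 95% interval -0.34 to 0.26), and it ran from -0.15 with sample 10 left out to 0.07 with sample 12 left out. Of 24 other genes of adherens junctions and focal adhesions, 20 were tested, 9 were higher and 11 lower, with a median of -0.02. At an unadjusted p below 0.05 in limma there were 0, against 3.21% of named genes. Actn4, an actin cross-linker, had -0.20 ± 0.10 with groups that did not overlap, the integrin-linked Parva had 0.15 ± 0.11, and the talin gene Tln2 had -0.13 ± 0.11. Actn4 was the only gene of the list without overlap, 5.0% of it, against 9.20% of named genes. The list's median was -0.06 without wild-type sample 10 and turned to 0.03 without wild-type sample 12, where 13 of 19 genes were higher.

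Marcks encodes a membrane-bound substrate of protein kinase C that holds phosphoinositides and binds actin. Its signal was bright on every array, at 13.1, 13.3 and 13.2 in null samples 6, 9 and 11, against 12.8, 13.1 and 13.0 in wild-type samples 7, 10 and 12. Null samples 9 and 11 were above all wild-type arrays, and null sample 6 lay between wild-type samples 12 and 10. The difference was 0.20 ± 0.12 (SE; 95% interval -0.07 to 0.47; limma unadjusted p = 0.120). No other of the 11 probes had a smaller p. It was 0.12 with cyclic loess normalization, and 0.11 to 0.27 with 1 array left out.

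Marcksl1 encodes the smaller relative of Marcks, and its difference had the other sign. The brighter probe (GE35745) gave 7.30 and 7.50 in null samples 6 and 9, against 7.48, 7.60 and 7.64 in wild-type samples 7, 10 and 12. The spot of null sample 11 was flagged irregular and left out of the fit. Null sample 9 was just above wild-type sample 7, and the 2 other wild-type arrays were higher. The difference was -0.18 ± 0.12 (SE, n = 2 null and 3 wild type in limma; 95% interval -0.46 to 0.10; adjusted p = 0.9999), -0.20 with the irregular spot kept and -0.25 with the intensity floored at 1. The other probe (GE1566564) was near background on all arrays. Whether the differences of Marcks and Marcksl1 differ from each other was not tested.

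Abl1 encodes a cytoplasmic tyrosine kinase that shapes actin at the apical surface, and Abl2 its close relative; closure fails when both are lost. Abl1 had 3 probes. The brightest (GE117206) gave 10.3, 10.5 and 10.1 in null samples 6, 9 and 11, against 10.3, 10.2 and 10.5 in wild-type samples 7, 10 and 12, a difference of -0.03 ± 0.12 (SE). Null sample 11 was the lowest and wild-type sample 12 the highest, with the other arrays interleaved, and its sign changed to 0.006 with median scaling. The probe GE32926 had -0.01 ± 0.10, with the sign turned under 4 alternative settings that keep all arrays, and to 0.05 without wild-type sample 10. The probe GE128581 gave 6.73, 6.65 and 6.72 in null samples 6, 9 and 11, against 6.84, 6.88 and 6.77 in wild-type samples 7, 10 and 12. On this probe all 3 null values were below all 3 wild-type values, as on 4.33% of all tested probes, yet the difference was -0.13 ± 0.09 (SE; limma unadjusted p = 0.198) and the lowest wild-type array was 0.04 above the highest null array. With the intensity floored at 1 the difference on that probe was -0.23.

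Abl2 was near background on 3 of 6 arrays and was not tested. Its probe (GE1407266) had 5.88, 6.57 and 6.61 in null samples 6, 9 and 11, against 6.39, 6.22 and 6.49 in wild-type samples 7, 10 and 12. Null sample 6 was the lowest and null samples 9 and 11 the highest. Among 16 partners of the Abl kinases and MARCKS proteins, 14 were tested, 8 were higher and 6 lower, with a median of 0.06. At an unadjusted p below 0.05 in limma there were 0, against 3.21% of named genes. The Abl-binding adaptor gene Sorbs2 had 0.26 ± 0.12 with groups that did not overlap, the calmodulin gene Calm2 0.35 ± 0.17 and the kinase gene Prkcd 0.22 ± 0.11. Sorbs2 was the only such gene of the list, 7.14% of it, against 9.20% of named genes with groups that did not overlap. Leaving out wild-type sample 10 gave 0.15 for Sorbs2, 0.515 for Calm2 and a list median of 0.02, and leaving out wild-type sample 7 gave 0.21 for Calm2.

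Cfl1 encodes cofilin, which severs and depolymerises actin filaments. Its probe (GE42475) gave 10.5, 10.6 and 10.8 in null samples 6, 9 and 11, against 10.8, 10.4 and 11.7 in wild-type samples 7, 10 and 12. A single array, wild-type sample 12, was high, and the 5 others lay within the range from 10.4 to 10.8. The means were 10.6 ± 0.12 in null and 11.0 ± 0.69 in wild-type tissue (SD, n = 3 each), and the difference was -0.33 ± 0.29 (SE; 95% interval -1.0 to 0.34; limma adjusted p = 0.9999). It was 0.05 with sample 12 left out and -0.61 with sample 10 left out (unadjusted p = 0.0401, limma adjusted p = 0.785). Sample 12 was also the array with the highest Arpc4 and Vcl signals and had the highest Fkbp8 of the wild-type arrays. The 31 actin assembly genes measured on every array averaged 0.09 on sample 12, relative to their mean over the arrays. Wild-type samples 7 and 10 had -0.087 and -0.055, and null samples 6, 9 and 11 had 0.013, 0.094 and -0.057. Some genes of that list, among them Arpc2, Pfn2 and Cap1, instead had their lowest signal on sample 12. The related Cfl2 had 12.0, 12.2 and 12.2 in null samples 6, 9 and 11, against 12.0, 12.1 and 12.1 in wild-type samples 7, 10 and 12, with a difference of 0.11 ± 0.11 (SE).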

How the data were processed

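Total RNA was amplified by a modified Eberwine method, per the labels' protocols. Per the file headers, spots were quantified with CodeLink Expression Analysis 4.1, and the authors deposited a raw intensity, already background-subtracted since 38 to 67 transcript spots per array were below 0, a median-normalized intensity and a quality flag. Here the raw intensity was set to 0 where negative, increased by 50, converted to log2 and brought to a common distribution over the transcript spots by quantile normalization. After that, 391 to 543 spots per array with a flag for an irregular, contaminated or defective spot were removed. Testing required a probe to carry no near-background flag in any sample of 1 group or the other, and 2 or more usable values in each. lmFit and eBayes of limma 3.58.1 (R 4.3.3) compared 3 null with 3 wild-type samples in a two-sided test. P-values were adjusted by Benjamini-Hochberg across the 21243 probes, with a threshold of 0.05. The fit was tested on simulated data. Symbols came from the platform annotation, updated through RefSeq (GRCm38.p6). The authors' value table of deposited intensities was an alternative, and the control summary files were not used. Lists used the brightest tested probe per gene.

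The members and lists were chosen with earlier results of these data known. Named genes were the members with every probe, Fkbp8, the 3 genes of each pathway list with the smallest p, some of the 2 with the smallest p in each marker list, and the 3 genes most correlated with Grhl2 and with Grhl3. Cfl2, Krt8, Pfn2, Cap1, Xist, Eif2s3y and Grhl1 were added after their values were seen. No scan or extraction batch is recorded in the labels. The number of arrays limits the precision.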

Additional observations from a re-analysis of the deposited data

How the results depend on the processing

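Over 14 alternative settings no member probe passed the adjusted threshold in limma (smallest adjusted p = 0.785). The Abl1 probe GE117206 turned sign with median scaling (0.0063), with the authors' value table (0.017) and with the intensity normalized by the scanner (0.0193). The Abl1 probe GE32926 did so with median scaling (0.0016), cyclic loess (0.0004), the authors' table (0.0012) and the scanner-normalized intensity (0.0036). The cause was not tested. With 1 array left out, log2 differences that changed sign spanned -0.1075 to 0.055 (Abl1 GE117206), -0.0483 to 0.0477 (Abl1 GE32926), -0.0432 to 0.1732 (Enah GE34083), -0.0936 to 0.0074 (Enah GE35355), -0.1466 to 0.0703 (Vcl) and -0.612 to 0.0501 (Cfl1). Then 0 to 1 member probes were under an unadjusted p of 0.05 and 1 to 5 had groups that did not overlap. The 5 arose without null sample 6, among 12 tested (41.7%, against 20.5% of all probes in that setting). Marcksl1 could not be fitted without null sample 6 or 9, which leaves 1 null value.

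Over all probes, the 1 adjusted call became 0 with the floor at 1, median scaling, cyclic loess, the authors' table, the scanner-normalized intensity or background passed on all arrays, and 2 with all spots kept; it was 0 to 1 with 1 array left out. The 656 unadjusted calls became 291 with median scaling, 1095 without the filter on dim probes, and 394 (without null sample 9) to 1355 (without wild-type sample 10) with 1 array left out. The 1966 probes with groups that did not overlap became 1305, 3063, and 3286 (without null sample 9) to 5007 (without wild-type sample 10). Groups of 3 and 2 arrays separate more readily than groups of 3 and 3, so that last range is not comparable with 1966. Without the filter on dim probes all 15 member probes were tested, with 0 called. No paired analysis was possible because no sample number occurs in both groups and the labels state no pairing. Shroom3, Abl2 and 1 probe each of Grhl2 and Marcksl1 were limited by signal close to background.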

Other observations

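Markers of other tissues in the posterior piece gave no limma call either (adjusted p = 0.9999 for each gene named here). Of 8 somite markers tested, 6 were higher and 2 lower in null tissue, with a median log2 difference of 0.37, which was 0.15 without wild-type sample 10 and 0.20 without null sample 9, and the mesoderm gene Meox2 had 0.40 ± 0.17 (SE; 0.23 without null sample 9). Of 8 neural progenitor markers, 2 were higher and 6 lower (median -0.11), against 4 and 4 without wild-type sample 10 (median -0.05). The neural tube gene Pax6 had -0.76 ± 0.25, and -0.56 without wild-type sample 10. Foxa2, a gene of gut endoderm and also of the floor plate, had 0.72 ± 0.17, though 5 of the 7 gut endoderm markers were lower. The endothelial receptor gene Kdr had 0.27 ± 0.10, while of 6 endothelial markers tested 3 were higher and 3 lower (median 0.02). Erythroid markers, 6 tested, had a median of -0.02, which ran from -0.36 without wild-type sample 7 to 0.34 without wild-type sample 10. The tail bud and presomitic markers had 6 of 8 higher, and 1 of 8 without wild-type sample 10. The part of tissue makeup in the values of the closure genes was not tested.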
